A study of Schizosaccharomyces pombe with 10 samples.

Results

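Non-coding RNA genes of the fission yeast Schizosaccharomyces pombe whose exons overlap no exon of another annotated gene were described in poly(A)-selected RNA sequencing of 10 libraries. Members were the rows of the deposited count table with an SPNCRNA identifier on chromosomes I, II and III that share no exon position with another row on either strand. SPNCRNA.388, genes that start within 100 kb of an end of chromosomes I and II, and 3 windows around the centromeres were left out. Of 1535 SPNCRNA rows, 1291 overlapped another gene, 36 lay in the windows, 21 near the ends and 1 was left out by name, which left 186 members among 7268 genes. Of these, 153 had enough counts to be among the 5067 genes tested. The other 33 held at most 72 counts each over all libraries, and 1 of them, SPNCRNA.290, had no count.

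The strain labelled wt was dy1779, h-, with the alleles his3 d1, ura4-d18, leu1-32 and ade6-m216, and the cph1-delta and cph2-delta strains carried KANMX deletions in that background. The strain labelled wt2 was h-, with no other allele given, and set2-delta was its KANMX null. Each of the 5 strains gave 2 libraries from cells grown in 2xYES at 30 °C to an OD600 between 0.6 and 1.2, before RNA extraction with hot acidic phenol. Clr6 complex II is a histone deacetylase with the PHD finger proteins Cph1 and Cph2 among its subunits, and Set2 methylates lysine 36 of histone H3. The labels do not say that replicates were separate cultures, nor how many clones of each deletion were used. The p-values therefore measure the spread between these libraries, which may be technical. In bulk RNA, fewer cells that make a transcript and less of it per cell cannot be told apart.

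Fission yeast transcribes many non-coding RNAs at low levels, often from the nucleosome-free regions between genes and divergently from coding promoters. The nuclear exosome degrades much of this RNA. The YTH protein Mmi1 delivers transcripts that carry clusters of a hexamer, written TTAAAC in DNA letters for 1 of its forms, to that pathway during vegetative growth. In the body of transcribed genes, Set2 and Clr6 complex II act on chromatin behind RNA polymerase II and limit initiation at sites inside genes.

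The sequences below are those of the RNAs that the comparisons turn on, from RefSeq, build ASM294v3, looked up by gene identifier. The first is the whole 123-base transcript of SPNCRNA.307 (chrII:487382-487504, plus strand), the only member past edgeR's test as higher in all 3 deletion strains. It holds no TTAAAC.
SPNCRNA.307: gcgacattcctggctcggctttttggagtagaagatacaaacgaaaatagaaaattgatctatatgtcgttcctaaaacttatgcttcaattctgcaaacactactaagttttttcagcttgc
The second is the 300-base stretch near the 3′ end of sme2 (SPNCRNA.103, chrII:339347-339646, minus strand) that holds its 3 TTAAAC hexamers, shown in capitals. The sme2 transcript, meiRNA, binds Mei2 and Mmi1 in meiosis and is a known target of Mmi1.
sme2: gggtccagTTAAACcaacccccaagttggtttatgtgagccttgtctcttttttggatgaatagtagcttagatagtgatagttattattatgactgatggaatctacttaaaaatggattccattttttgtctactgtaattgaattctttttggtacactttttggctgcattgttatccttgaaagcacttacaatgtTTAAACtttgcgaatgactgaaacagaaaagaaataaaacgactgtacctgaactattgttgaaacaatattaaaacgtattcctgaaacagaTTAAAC
The next 5 are windows from 250 bases before to 50 bases after the annotated start, for the 5 members with the largest fitted changes among those past edgeR's test in a deletion strain against its parent. Capitals mark matches on either strand to TATAAA (the TATA box), TGACGT (bound by Atf1), TTCTTTG (the core of the Ste11 site), GTAAACA (forkhead factors) and TTAAAC, with overlapping matches allowed. SPNCRNA.307 (chrII:487132-487431, plus strand) had TTCTTTG at -117 from the start.
SPNCRNA.307 window: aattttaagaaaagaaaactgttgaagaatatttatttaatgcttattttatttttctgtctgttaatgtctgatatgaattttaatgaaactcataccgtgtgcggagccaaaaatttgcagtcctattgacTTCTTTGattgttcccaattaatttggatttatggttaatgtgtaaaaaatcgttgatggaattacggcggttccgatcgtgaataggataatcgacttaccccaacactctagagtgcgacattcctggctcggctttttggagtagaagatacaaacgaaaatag
SPNCRNA.1460 (chrII:1750994-1751293, minus strand) had TGACGT at -129.
SPNCRNA.1460 window: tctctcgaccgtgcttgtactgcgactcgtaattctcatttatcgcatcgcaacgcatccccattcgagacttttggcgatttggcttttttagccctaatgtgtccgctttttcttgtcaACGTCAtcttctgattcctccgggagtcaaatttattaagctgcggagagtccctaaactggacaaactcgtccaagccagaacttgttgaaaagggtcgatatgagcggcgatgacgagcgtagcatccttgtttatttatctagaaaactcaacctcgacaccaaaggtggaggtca
SPNCRNA.1310 (chrII:109856-110155, minus strand) had TGACGT at -61 and TTAAAC at -191.
SPNCRNA.1310 window: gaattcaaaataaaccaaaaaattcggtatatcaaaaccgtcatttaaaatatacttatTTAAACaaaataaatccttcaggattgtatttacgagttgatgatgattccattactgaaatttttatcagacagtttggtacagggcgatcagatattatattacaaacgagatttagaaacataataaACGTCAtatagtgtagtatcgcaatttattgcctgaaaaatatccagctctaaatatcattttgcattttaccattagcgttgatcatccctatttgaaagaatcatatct
SPNCRNA.292 (chrII:113842-114141, plus strand) had GTAAACA at -12 and TATAAA at 42.
SPNCRNA.292 window: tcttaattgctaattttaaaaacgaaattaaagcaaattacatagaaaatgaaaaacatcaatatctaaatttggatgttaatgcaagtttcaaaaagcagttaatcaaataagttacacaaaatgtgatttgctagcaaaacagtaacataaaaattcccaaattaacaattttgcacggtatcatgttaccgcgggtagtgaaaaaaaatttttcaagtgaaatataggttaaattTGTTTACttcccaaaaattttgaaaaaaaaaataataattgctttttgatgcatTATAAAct
SPNCRNA.21 (prl21, chrI:5454449-5454748, minus strand) held none of the 5 motifs.
SPNCRNA.21 window: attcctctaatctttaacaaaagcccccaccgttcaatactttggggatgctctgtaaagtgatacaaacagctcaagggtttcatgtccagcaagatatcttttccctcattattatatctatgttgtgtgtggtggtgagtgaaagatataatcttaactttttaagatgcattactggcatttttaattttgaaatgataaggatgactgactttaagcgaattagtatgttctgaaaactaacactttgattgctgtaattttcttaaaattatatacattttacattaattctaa

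No motif occurred in all 5 windows. Among the same 300-base windows of all 12605 RefSeq genes, 45.3% held TATAAA, against 44.6% of the 177 members that RefSeq lists. TGACGT was in 5.49% of all windows and 8.47% of the members', TTCTTTG in 11.1% and 14.1%, GTAAACA in 12.98% and 17.5%, and TTAAAC in 30.1% and 26.6%. In the windows of 5112 coding genes, TATAAA was in 48.1%, TGACGT in 5.91%, TTCTTTG in 9.94%, GTAAACA in 16.5% and TTAAAC in 32.0%. A match here is a string of letters and no evidence of binding. Within the transcripts, 62 of 177 members (35.0%) held at least 1 TTAAAC on the sense strand, at 0.666 per kilobase, while 49.4% of 5112 coding genes held one, at 0.411 per kilobase. Members were AT-rich, with a median GC content of 31.6% (from 19.2% to 41.8%), below the 37.2% of coding genes. SPNCRNA.753 held 5 hexamers and SPNCRNA.493 held 3. Neither passed the test in any comparison of edgeR's fit over all 10 libraries.

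All members are annotated as single exons, from 56 to 2179 bases long with a median of 512. There were 80 on chromosome I, 64 on II and 42 on III. Their nearest coding gene lay at a median of 160 bases: 114 were within 250 bases of one, 35 were more than 500 bases away, and the farthest was at 12233 bases. In 110 members the upstream coding gene was on the other strand and the downstream gene on the same strand, 40 had both flanking genes on the other strand, 26 lay in tandem with both, and 10 followed a gene on their own strand and faced the next. SPNCRNA.497, the small nucleolar RNA snR48, lay within the span of another gene without touching its exons. Members are non-coding by their identifier in the count table. RefSeq lists 154 of them as lncRNA, 21 as ncRNA, 1 as snRNA and 1 as protein-coding, and 9 are not in it. Absence of overlap holds for the annotation in the count table. In the larger annotation of RefSeq, 105 of 177 members overlapped another exon, 102 of them only non-coding ones and 3 a coding gene, and 72 overlapped none. Among the members that passed a test below, SPNCRNA.307, SPNCRNA.291, SPNCRNA.1310 and SPNCRNA.963 overlapped none there. Reads were counted without regard to strand, so transcripts that read through from a neighbour, or antisense to a member, cannot be told from its own.

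The libraries held between 9711537 and 13051467 counts assigned to genes. The deleted genes matched the labels: cph1 had 801 and 770 counts in wt and 52 and 33 in cph1-delta, cph2 had 1356 and 1070 in wt and 70 and 28 in cph2-delta, and set2 had 1211 and 1048 in wt2 and 87 and 108 in set2-delta. Over all tested genes, replicates differed by a median of 0.19 to 0.30 on the log2 scale. For the tested members that spread was 0.58 in wt, 0.70 in cph1-delta, 1.03 in cph2-delta, 0.37 in wt2 and 0.52 in set2-delta. One library stood apart: in cph2-delta replicate 2 the median tested member was 0.83 below its mean over the 10 libraries on the log2 scale, and 149 members had a count, against 157 to 178 in the others. Its median over all tested genes was 0.03, and its TMM factor (edgeR's trimmed-mean scaling) was 0.904. The member median of cph1-delta replicate 2 was 0.43, with the highest TMM factor, 1.25, and that of wt replicate 2 was -0.17, with the lowest, 0.845. The part of these libraries in the comparisons below was not tested beyond leaving each one out.

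The members together took a small share of the RNA, and its differences in cph1-delta and cph2-delta were within the replicate spread. They held 0.108% and 0.0687% of assigned counts in wt, 0.0996% and 0.157% in cph1-delta, 0.0954% and 0.0557% in cph2-delta, 0.0885% and 0.0879% in wt2, and 0.118% and 0.116% in set2-delta. The cph1-delta and cph2-delta libraries overlapped those of wt, while both set2-delta libraries lay above both of wt2. The same held for the non-coding RNAs that are not members. Their shares were 0.3142% and 0.2297% in wt, 0.3071% and 0.4881% in cph1-delta, and 0.2988% and 0.2103% in cph2-delta. In wt2 they were 0.2635% and 0.2560%, and in set2-delta 0.3558% and 0.3328%. The pattern was thus not particular to the members. The members' mean share was 0.117% ± 0.00185 (SD, n = 2) in set2-delta and 0.0882% ± 0.000463 in wt2. A two-sided exact permutation test gave p = 0.3333 for set2-delta, the smallest value that 2 against 2 libraries allow, and p = 0.667 for both cph1-delta and cph2-delta. The cph1-delta excess of 0.0402 percentage points was 0.0114 without cph1-delta replicate 2. The cph2-delta difference of -0.0127 points turned to 0.0072 without cph2-delta replicate 2 and to 0.00682 without wt replicate 1. All 95% Wilson intervals were narrow, such as 0.106% to 0.110% for wt replicate 1, and cover counting error only.

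**Figure D1:**
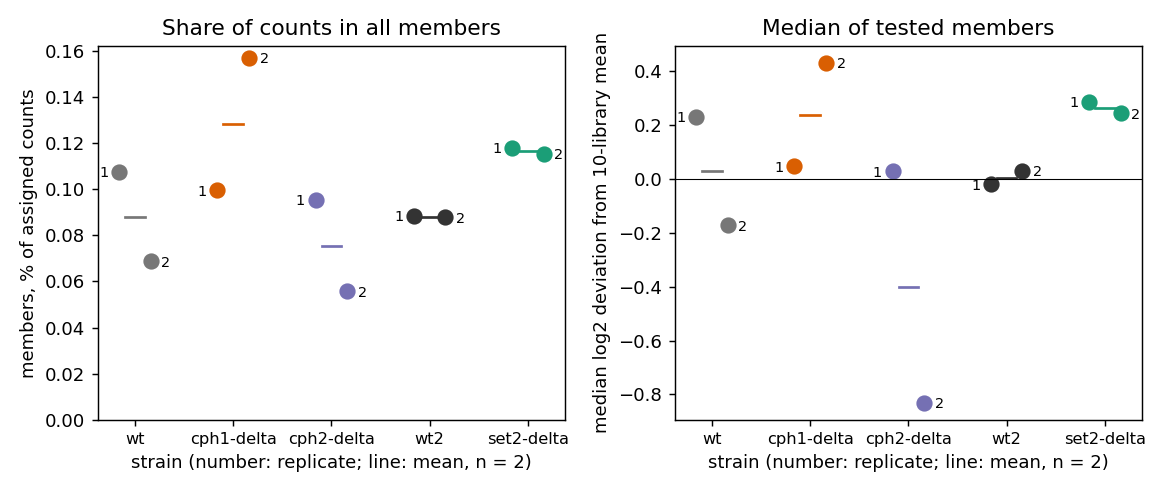
The left panel plots the percentage of assigned counts in the 186 members for each library, and the right panel the median log2 deviation of the 153 tested members from their mean over the 10 libraries, with points numbered by replicate and lines at the strain mean. The set2-delta libraries sit at 0.118% and 0.116%, above both wt2 libraries, and cph2-delta replicate 2 sits lowest in both panels, at 0.0557% and -0.83.

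Over all 186 members the median level was 4.17 CPM per kb (counts scaled to library depth by TMM, CPM, per kilobase of exon), against 35.0 for coding genes and 0.0357 for the other non-coding RNAs. Most of the other non-coding RNAs overlap another gene, and counting had no option for reads over several genes. Reads on shared positions were thus not assigned, so 0.0357 is no measure of how much these RNAs are transcribed. The 5 members with most counts held 27.8% of the 108606 member counts. By level per length, SPNCRNA.129 ranked first with 166.5 CPM per kb, followed by prl58, SPNCRNA.99, SPNCRNA.105, sme2, prl59, SPNCRNA.1600 and snR48, from 93.7 down to 44.6 CPM per kb. The prl genes encode poly(A)-bearing RNAs without a long open reading frame.

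Neither sme2 nor snR48 passed the test in any comparison of edgeR's fit over all 10 libraries, and nor did ncRNA.1343, meu19, prl58 or prl59. In the fit of set2-delta and wt2 alone, sme2 passed as higher in set2-delta. The sme2 gene had 436 and 126 counts in wt, 409 and 1223 in cph1-delta, 218 and 80 in cph2-delta, 206 and 176 in wt2, and 349 and 585 in set2-delta. Replicates of wt, cph1-delta and cph2-delta differed severalfold, and both set2-delta libraries lay above both of wt2. The fitted log2 fold change of sme2 was 1.22 ± 0.60 (SE) in cph1-delta (edgeR adjusted p = 0.24), -1.0 ± 0.62 in cph2-delta (0.36) and 1.15 ± 0.61 in set2-delta (0.35). The count table places sme2 on 667 bases, whereas RefSeq has 1562 bases that overlap the coding gene SPBC1271.13. All 3 hexamers lie in the last 667 bases of the RefSeq form. They are thus in the shorter form if both share their 3′ end, which was assumed here. The snR48 RNA had 31 and 19 counts in wt2 and 54 and 55 in set2-delta, with a log2 fold change of 1.04 ± 0.80 in set2-delta against wt2 (edgeR adjusted p = 0.56).

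The RNA ncRNA.1343 lies 1661 bases from tgp1, a gene for a glycerophosphodiester transporter that responds to phosphate, on the other strand. It had 748 and 482 counts in wt, 817 and 1092 in cph1-delta, 621 and 480 in cph2-delta, 800 and 734 in wt2, and 687 and 929 in set2-delta. In CPM its levels overlapped between each deletion strain and its parent. The log2 fold changes of ncRNA.1343 were 0.31 ± 0.24, -0.29 ± 0.24 and -0.05 ± 0.24 in cph1-delta, cph2-delta and set2-delta, with edgeR adjusted p of 0.45, 0.51 and 0.94. In the same libraries tgp1 rose in set2-delta by 1.25 ± 0.27 on the log2 scale (edgeR adjusted p = 0.022), and its log2 fold change was 0.34 ± 0.26 in cph1-delta (0.45). The mean CPM of tgp1 was 41.9 in wt, 16.1 in wt2 and 38.4 in set2-delta, so the rise started from the lower parent. The part of that gap between the parents in the rise was not tested. The RNA meu19, named for its induction in meiosis, had 261 and 14 counts in the cph2-delta libraries and between 75 and 319 in the others.

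In cph1-delta, 2 members rose and none fell: SPNCRNA.307 and prl21. That is 1.31% of the 153 tested members, while 5.31% of all 5067 tested genes rose and 0.316% fell (5.62% in either direction). At an unadjusted p under 0.05, edgeR gave 10 of the 153 members higher and 5 lower, against 14.9% and 8.35% of all tested genes. DESeq2 called 5 members after adjustment, 2 higher and 3 lower, against 6.8% and 3.14% of all genes to which it gave an adjusted p (9.94% in either direction). The 3 lower, SPNCRNA.963, SPNCRNA.1423 and SPNCRNA.1506, had DESeq2 log2 fold changes of -1.43, -1.88 and -1.78; SPNCRNA.1423 and SPNCRNA.1506 are named after their values were seen. The median fitted log2 fold change was 0.29 over the tested members, 0.32 over the other non-coding RNAs, and 0.02 over all tested genes. Without cph1-delta replicate 2 the member median was -0.07. In 33 tested members (21.6%) both cph1-delta libraries lay above both of wt, and in 16 (10.5%) below; over all tested genes these shares were 28.8% and 23.1%. The member standard error had a median of 0.67, against 0.24 over all tested genes.

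SPNCRNA.307 is 123 bases long and lies between ctf18, which encodes a subunit of a replication clamp loader, and nem2. It had 3 and 5 counts in wt, 34 and 54 in cph1-delta, 34 and 90 in cph2-delta, 1 and 1 in wt2, and 10 and 24 in set2-delta. Every deletion library lay above every library of its parent, and both parents were near the limit of detection. Fitted log2 fold changes of SPNCRNA.307 were 3.09 ± 0.72 in cph1-delta (edgeR adjusted p = 0.030), 3.71 ± 0.72 in cph2-delta (0.012) and 3.78 ± 0.92 in set2-delta (0.038). With 2 counts in wt2, the set2-delta value depends on the fit's prior count. The ratio of summed counts, scaled for depth, was 15.7 with a 95% counting interval from 4.03 to 135. The differences of the cph1-delta and cph2-delta effects from that of set2-delta missed the threshold (edgeR adjusted p = 0.91 and 0.98). Both neighbours stayed below the threshold in all 3 strains, with log2 fold changes of ctf18 of 0.30, 0.54 and -0.12 and of nem2 of -0.36, -0.23 and -0.29.

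SPNCRNA.307 was the only member past the test in all 3 deletion strains in 1 direction, against 68 of all tested genes (1.34%) that rose in all 3. The cph1-delta and cph2-delta comparisons share the wt libraries. Its call in cph1-delta was lost without wt replicate 1, wt replicate 2 or cph1-delta replicate 2, with edgeR adjusted p of 0.096, 0.17 and 0.19, and in the fit of the compared strains alone (0.052). In cph2-delta it was lost without wt replicate 1, wt replicate 2 or cph2-delta replicate 2 (0.070, 0.097 and 0.098). In set2-delta it was lost without any 1 of the 4 compared libraries: edgeR adjusted p was 0.24 and 0.21 without wt2 replicate 1 and 2, and 0.066 and 0.20 without set2-delta replicate 1 and 2. Leaving out cph1-delta replicate 1 or 2, which add to the estimate of the spread, gave 0.056 and 0.059 there, scaling by total counts 0.056, and the fit of the compared strains alone 0.063.

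The prl21 RNA (SPNCRNA.21, chrI:5454229-5454498, minus strand, 270 bases) had 5 and 9 counts in wt, 40 and 79 in cph1-delta, 27 and 37 in cph2-delta, 9 and 20 in wt2, and 22 and 24 in set2-delta. All 4 libraries of cph1-delta and cph2-delta lay above both of wt. Fitted log2 fold changes of prl21 were 2.73 ± 0.68 in cph1-delta (edgeR adjusted p = 0.041), 2.00 ± 0.69 in cph2-delta (0.10) and 0.51 ± 0.65 in set2-delta (0.74). Its cph1-delta effect minus its set2-delta effect was 2.22 ± 0.94, which missed the threshold (edgeR adjusted p = 0.53). The cph1-delta call was lost without wt replicate 1 (0.12), wt replicate 2 (0.19) or cph1-delta replicate 2 (0.30), and also without cph2-delta replicate 1 (0.0502) or 2 (0.053) or set2-delta replicate 1 (0.066) or 2 (0.065), and in the fit of the compared strains alone (0.063). It lies 84 bases from SPAC1039.04, whose log2 fold change in cph1-delta was 0.57 ± 0.16 (edgeR adjusted p = 0.068).

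**Figure D2:**
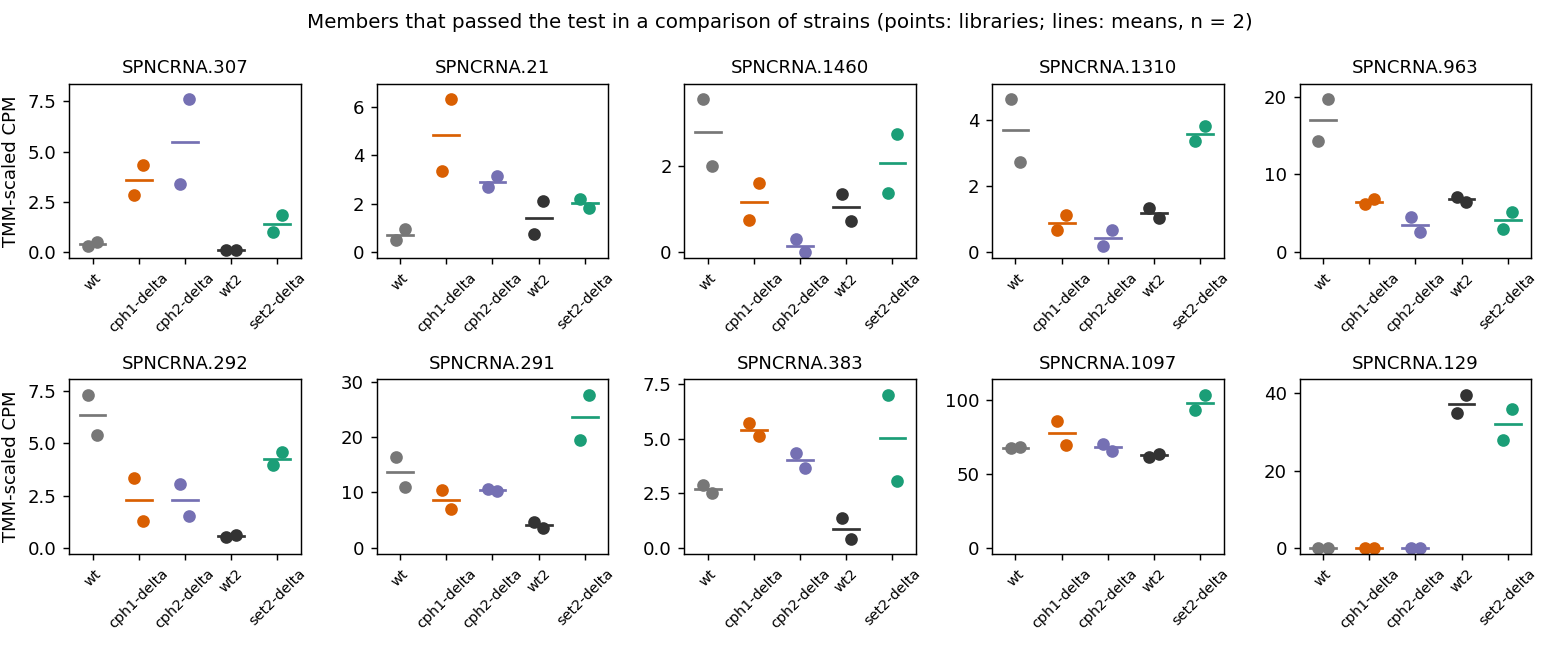
Each panel plots the TMM-scaled CPM of 1 member in the 10 libraries (points) with the mean of each strain (lines, n = 2), for the 10 members that passed the test in a comparison of 2 strains. SPNCRNA.307 is higher in every deletion library than in its parent, SPNCRNA.963 is highest in both wt libraries, and SPNCRNA.129 is at 0 in the 6 libraries of wt, cph1-delta and cph2-delta.

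In cph2-delta, 3 members fell, SPNCRNA.1460, SPNCRNA.1310 and SPNCRNA.963, and SPNCRNA.307 rose. The 4 members were 2.61% of those tested, while 0.908% of all tested genes fell and 5.21% rose (6.12% in either direction). At an unadjusted p under 0.05, edgeR gave 4 of the 153 members higher and 17 lower, against 14.7% and 8.82% of all tested genes. DESeq2 called 7 members after adjustment, 1 higher and 6 lower, against 6.69% and 3.95% of all tested genes (10.6% in either direction). The median log2 fold change was -0.49 over the tested members, -0.13 over the other non-coding RNAs and 0.01 over all tested genes. In 46 tested members (30.1%) both cph2-delta libraries lay below both of wt and in 12 (7.84%) above, against 22.04% and 27.9% of all tested genes. These values moved with cph2-delta replicate 2: without it the member median was -0.12 and no member passed, and without cph2-delta replicate 1 the median was -1.18 and 13 members passed. Without wt replicate 1 the median was -0.04, and without wt replicate 2 no member passed.

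SPNCRNA.963 (chrI:4140077-4141041, plus strand, 965 bases) lies 239 bases from tif51, which encodes the translation factor eIF5A. It had 144 and 187 counts in wt, 75 and 85 in cph1-delta, 46 and 30 in cph2-delta, 85 and 62 in wt2, and 30 and 68 in set2-delta. In CPM, the wt libraries were the 2 highest of the 10, at 17.0 ± 3.9 (SD, n = 2) against 6.82 ± 0.48 in wt2. SPNCRNA.963 had a log2 fold change of -2.26 ± 0.44 in cph2-delta (edgeR adjusted p = 0.013), -1.38 ± 0.42 in cph1-delta (0.085) and -0.73 ± 0.43 in set2-delta (0.42). Between the parents, wt2 against wt, it was -1.31 ± 0.42 (0.42). The cph2-delta call was lost without wt replicate 2 (edgeR adjusted p = 0.10) or cph2-delta replicate 2 (0.096). The tif51 gene had a log2 fold change of 0.33 ± 0.25 in cph2-delta.

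SPNCRNA.1460 (chrII:1749626-1751043, minus strand, 1418 bases) lies between scr1, which encodes a repressor of glucose-regulated genes, and clg1. It had 36 and 19 counts in wt, 9 and 20 in cph1-delta, 3 and 0 in cph2-delta, 16 and 7 in wt2, and 14 and 36 in set2-delta. The cph2-delta libraries were the 2 lowest. The fitted log2 fold change in cph2-delta was -4.21 ± 1.04 (edgeR adjusted p = 0.037) and depends on the prior count, since that group held 3 counts. The depth-scaled ratio of wt to cph2-delta counts of SPNCRNA.1460 was 20.5, with a 95% counting interval from 6.65 to 102. Its call was lost without wt replicate 1 (0.11), wt replicate 2 (0.10), cph2-delta replicate 2 (0.20), cph1-delta replicate 2 (0.0503), set2-delta replicate 1 (0.051) or set2-delta replicate 2 (0.056), and with the replicate number as a block (0.052), with total counts as the scale (0.078) and in the fit of the compared strains alone (0.086). Without cph2-delta replicate 1, the remaining cph2-delta library was at 0.

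SPNCRNA.1310 (chrII:109405-109905, minus strand, 501 bases) lies between aat1, which encodes an amino acid transporter, and alr2. It had 47 and 26 counts in wt, 8 and 14 in cph1-delta, 2 and 8 in cph2-delta, 16 and 10 in wt2, and 34 and 50 in set2-delta. All libraries of cph1-delta, cph2-delta and wt2 lay below both of wt, and both set2-delta libraries above both of wt2. The log2 fold change of SPNCRNA.1310 was -3.01 ± 0.71 in cph2-delta (edgeR adjusted p = 0.029), -2.04 ± 0.65 in cph1-delta (0.097) and 1.57 ± 0.64 in set2-delta (0.21). The cph2-delta call was lost without wt replicate 1 (0.10) or 2 (0.089), cph2-delta replicate 1 (0.078) or 2 (0.064), or set2-delta replicate 1 (0.051) or 2 (0.054), and also with total counts as the scale (0.064) and in the fit of the compared strains alone (0.097).

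In set2-delta, 5 members rose and none fell: SPNCRNA.307, SPNCRNA.292, SPNCRNA.291, SPNCRNA.383 and SPNCRNA.1097. They were 3.27% of the tested members, while 4.32% of all tested genes rose and 0.572% fell (4.89% in either direction). At an unadjusted p under 0.05, edgeR gave 26 of the 153 members higher and 4 lower, against 13.4% and 4.84% of all tested genes. DESeq2 called 10 members after adjustment, all higher, against 5.98% of all tested genes (7.16% in either direction). The median log2 fold change was 0.34 over the tested members, 0.36 over the other non-coding RNAs and 0.03 over all tested genes. In 60 tested members (39.2%) both set2-delta libraries lay above both of wt2 and in 25 (16.3%) below, against 31.3% and 26.8% of all tested genes. Without wt2 replicate 2 no member passed.

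SPNCRNA.291 (chrII:103165-104528, minus strand, 1364 bases) lies 80 bases from SPBC359.01. It had 166 and 104 counts in wt, 126 and 87 in cph1-delta, 107 and 122 in cph2-delta, 56 and 34 in wt2, and 197 and 362 in set2-delta. The set2-delta libraries were the 2 highest and the wt2 libraries the 2 lowest. SPNCRNA.291 had log2 fold changes of 2.50 ± 0.37 in set2-delta (edgeR adjusted p = 0.0038), -0.65 ± 0.35 in cph1-delta (0.28) and -0.39 ± 0.35 in cph2-delta (0.54). Without wt2 replicate 2 its set2-delta adjusted p was 0.056. Its neighbour SPBC359.01 rose in set2-delta too, by 1.09 ± 0.23 on the log2 scale (edgeR adjusted p = 0.018).

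SPNCRNA.292 (chrII:114092-114583, plus strand, 492 bases) lies 619 bases from aat1 and 3308 bases from pfl7, which encodes a cell-surface adhesin. It had 74 and 51 counts in wt, 40 and 16 in cph1-delta, 31 and 18 in cph2-delta, 6 and 6 in wt2, and 40 and 60 in set2-delta. The wt2 libraries were the lowest, and those of wt the highest in CPM. The log2 fold change of SPNCRNA.292 was 2.90 ± 0.66 in set2-delta (edgeR adjusted p = 0.029), -1.46 ± 0.58 in cph1-delta (0.16) and -1.47 ± 0.58 in cph2-delta (0.15). The call was lost without wt2 replicate 1 (0.21) or 2 (0.18) or set2-delta replicate 1 (0.093) or 2 (0.13), and with total counts as the scale (0.052). The pfl7 gene had 18 and 18 counts in wt2 and 490 and 812 in set2-delta, and it rose by 5.02 ± 0.77 on the log2 scale (edgeR adjusted p = 0.0045). In wt it had 253 and 230 counts, so wt2 was the lower parent for pfl7 too.

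These 3 RNAs, SPNCRNA.291, SPNCRNA.1310 and SPNCRNA.292, lie in 1 stretch of the left arm of chromosome II, starting 103165, 109405 and 114092 bases from its end and so just inside the 100 kb limit of the rule. At all 3 the mean level of wt2 was the lower of the 2 parents. In CPM, SPNCRNA.1310 had 3.70 ± 1.4 (SD, n = 2) in wt, 1.20 ± 0.21 in wt2 and 3.59 ± 0.32 in set2-delta, and SPNCRNA.291 had 13.7 ± 3.9, 4.13 ± 0.82 and 23.6 ± 5.8. SPNCRNA.292 had 6.35 ± 1.4 in wt, 0.566 ± 0.086 in wt2 and 4.27 ± 0.45 in set2-delta. The log2 difference of wt2 against wt was -3.47 ± 0.67 for SPNCRNA.292, -1.72 ± 0.37 for SPNCRNA.291 and -1.61 ± 0.64 for SPNCRNA.1310, with edgeR adjusted p of 0.082, 0.11 and 0.63. DESeq2 put the first and second of these past 0.05. The next member toward that end, SPNCRNA.290, had no count. On the excluded side of the limit, SPNCRNA.117, at 99876 bases from the right end of chromosome II, had 10 and 3 counts in wt2 and 18 and 42 in set2-delta. SPNCRNA.278, at 97548 bases from the right end of chromosome I, had 6 and 2 in wt2 and 26 and 16 in set2-delta.

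SPNCRNA.383 (chrII:1969856-1970296, plus strand, 441 bases) lies 468 bases from the retrotransposon Tf2-10, whose near-identical copies make its own count uncertain. It had 29 and 24 counts in wt, 69 and 64 in cph1-delta, 44 and 43 in cph2-delta, 16 and 4 in wt2, and 71 and 40 in set2-delta. The wt2 libraries were the 2 lowest, and all 6 deletion libraries lay above both libraries of their parent. The log2 fold change of SPNCRNA.383 was 2.46 ± 0.63 in set2-delta (edgeR adjusted p = 0.048), 1.002 ± 0.57 in cph1-delta (0.31) and 0.56 ± 0.58 in cph2-delta (0.59). The call did not survive the loss of any single library: edgeR adjusted p ranged from 0.057 without cph2-delta replicate 1 to 0.35 without wt2 replicate 2, where the log2 fold change was 1.88. With all libraries it was also lost with RLE scaling (0.053), total counts (0.087), the filter of at least 5 CPM in 2 libraries (0.0503) and the compared strains alone (0.093).

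SPNCRNA.1097 (chrIII:39627-41424, minus strand, 1798 bases) lies 2055 bases from nic1, which encodes a nickel transporter. Its annotation starts 39627 bases from the left end of chromosome III, whose ends the rule did not leave out. SPNCRNA.1097 is thus near a chromosome end. It had 683 and 647 counts in wt, 1033 and 874 in cph1-delta, 707 and 779 in cph2-delta, 734 and 612 in wt2, and 943 and 1360 in set2-delta. In CPM both set2-delta libraries lay above the other 8, at 98.6 ± 7.5 (SD, n = 2) against 62.9 ± 1.6 in wt2. SPNCRNA.1097 had log2 fold changes of 0.65 ± 0.17 in set2-delta (edgeR adjusted p = 0.047), 0.20 ± 0.16 in cph1-delta (0.49) and 0.00 ± 0.17 in cph2-delta (0.99). Its set2-delta call held without cph1-delta replicate 1 (edgeR adjusted p = 0.049) and was lost without any other library, with adjusted p from 0.054 without cph1-delta replicate 2 to 0.27 without wt2 replicate 1. With all libraries it was also lost with RLE scaling (0.061), total counts (0.080), no low-count filter (0.062) and the replicate number as a block (0.071).

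**Figure D3:**
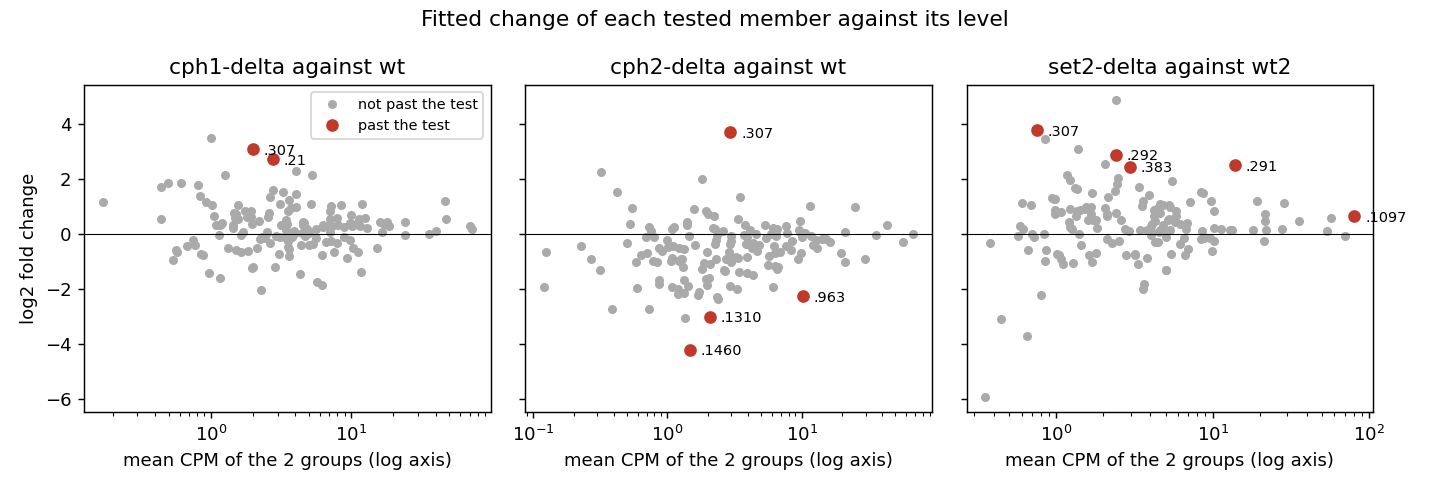
Fitted log2 fold change (vertical axis) of each tested member against its mean CPM in the 2 strains compared (horizontal log axis), for the 3 deletion comparisons, without SPNCRNA.129; red points passed edgeR's test at an adjusted p under 0.05. Of the members that passed, SPNCRNA.307 lies furthest left, in set2-delta, and SPNCRNA.1097 furthest right. Their single-strain means ran from 0.0943 CPM (SPNCRNA.307 in wt2) to 98.6 CPM (SPNCRNA.1097 in set2-delta), whereas points are placed at the mean of 2 strains. Most points with large changes lie at low levels and did not pass.

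Members were also described by position, level and orientation, with no test. In set2-delta, the median log2 fold change was 0.98 for the 27 tested members more than 500 bases from a coding gene, 0.14 for the 34 between 250 and 500 bases and 0.33 for the 92 nearer than 250 bases. The same classes had medians of 0.33, 0.28 and 0.26 in cph1-delta and -0.85, -0.57 and -0.36 in cph2-delta. The 51 members with the lowest levels in the parents had medians of 0.54 in cph1-delta, -0.52 in cph2-delta and 0.73 in set2-delta, and the 51 with the highest 0.20, -0.24 and 0.16. Median standard errors were 0.90 to 0.98 among the lowest and 0.44 to 0.45 among the highest. Members that follow a coding gene on their own strand (30 tested) had medians of 0.28, -0.37 and 0.51 in cph1-delta, cph2-delta and set2-delta, and those with the upstream gene on the other strand (123) had 0.30, -0.52 and 0.29.

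**Figure D4:**
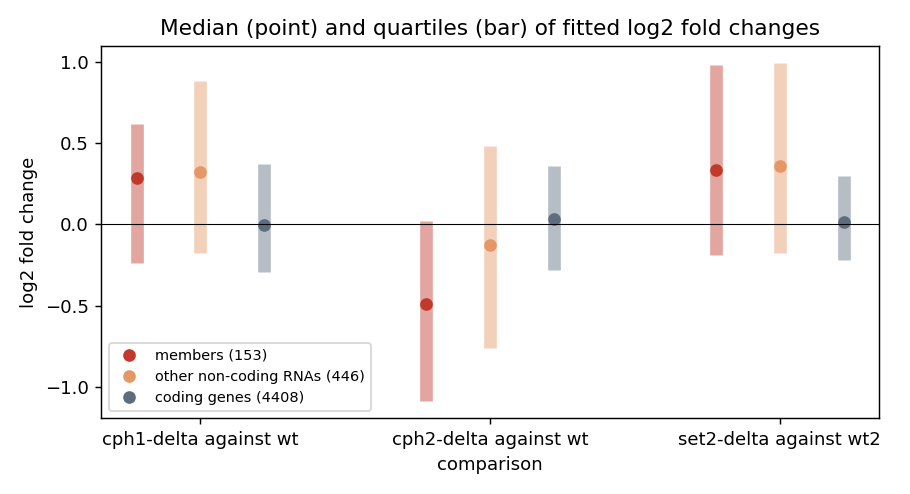
Points are medians and bars quartiles of the fitted log2 fold change (vertical axis) for the 153 tested members, 446 other non-coding RNAs and 4408 coding genes in each deletion comparison (horizontal axis). The member median is 0.29, -0.49 and 0.34 in cph1-delta, cph2-delta and set2-delta, against -0.01, 0.03 and 0.01 for coding genes, and the quartiles of both non-coding groups are wider.

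Members and their nearest coding gene showed weak relations. Over 148 pairs, Pearson's r between their log2 fold changes was 0.23 in cph1-delta, 0.17 in cph2-delta and 0.18 in set2-delta. These are descriptions across gene pairs that share libraries, scaling and possibly reads at their ends. The nearest coding gene passed the test as higher beside 6, 6 and 4 tested members, and the member's own fitted change was positive in 4, 2 and 4 of these. Of the coding genes on both sides of the called members, those called in the same direction were SPBC359.01 and pfl7 in set2-delta.

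The pathway that degrades such RNAs was described from a list of genes. Of 42 listed genes of the exosome, its cofactors and Mmi1 elimination, transcription termination and cytoplasmic decay, 40 were tested. In cph1-delta 1 of the 40 rose, in cph2-delta 2 rose and in set2-delta none did, where 5.31%, 5.21% and 4.32% of all tested genes rose. None of the 40 fell, against 0.316%, 0.908% and 0.572% of all tested genes. At the median the 40 genes had log2 fold changes of 0.11, 0.22 and 0.02. The helicase gene dbl8, listed here under termination, had 1223 and 1084 counts in wt, 2221 and 2297 in cph1-delta, and 2027 and 2109 in cph2-delta. It rose by 0.64 ± 0.16 and 0.69 ± 0.16 on the log2 scale (edgeR adjusted p = 0.040 and 0.028). The gene mtl1, which encodes an Mtr4-like helicase that works with the exosome, had 879 and 870 counts in wt and 1462 and 2017 in cph2-delta, and rose there by 0.82 ± 0.16 (edgeR adjusted p = 0.014). No exosome subunit among the 12 tested passed in any of the 3 strains.

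Between cph1-delta and cph2-delta no member passed the test, and 0.0592% of all tested genes did. At an unadjusted p under 0.05, edgeR gave 29 of the 153 members higher in cph1-delta and none lower, against 4.64% and 2.29% of all tested genes. DESeq2 called 1 member, SPNCRNA.12, named here after its value was seen, against 0.302% of all genes to which it gave an adjusted p. SPNCRNA.12 had 26 and 188 counts in cph1-delta and 8 and 2 in cph2-delta, against 29 and 9 in wt. The member median log2 difference was 0.60, against 0.00 over all tested genes. Over the 446 other non-coding RNAs tested the median was 0.39. At an unadjusted p under 0.05, edgeR gave 45 of those 446 higher in cph1-delta and 4 lower. Both libraries that stood furthest from the rest for the members, cph1-delta replicate 2 (0.43) and cph2-delta replicate 2 (-0.83), enter this comparison on opposite sides.

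Between the parents, 1 member differed: SPNCRNA.129 was higher in wt2, where 0.0592% of all tested genes were higher and 0.138% lower (0.197% in either direction). SPNCRNA.129 (chrIII:115394-115476, minus strand, 83 bases) lies 112 bases from ura4, which encodes orotidine 5′-phosphate decarboxylase, on the same strand. It had 0 counts in all 6 libraries of wt, cph1-delta and cph2-delta, 413 and 379 in wt2, and 282 and 471 in set2-delta. Presence and absence followed the ura4 gene itself, which had 0 counts in the same 6 libraries and 1688, 1357, 1825 and 2516 in those of wt2 and set2-delta. The wt background carries ura4-d18, a deletion allele of ura4. The difference in SPNCRNA.129 was at least 241-fold, with a floor of 3 counts over the wt group (edgeR adjusted p = 0.00031), and it passed under every alternative run. Its log2 fold change in set2-delta against wt2 was -0.22 ± 0.31 (edgeR adjusted p = 0.77). The level rank of SPNCRNA.129 rests on 4 of the 10 libraries.

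The effects of the deletions were compared with each other directly for cph1-delta and cph2-delta against set2-delta, each relative to its parent. The cph1-delta effect was lower than that of set2-delta for 2 members, where 0.75% of all tested genes were lower and 0.118% higher (0.868% in either direction). These were SPNCRNA.292, by -4.36 ± 0.88 on the log2 scale (edgeR adjusted p = 0.047), and SPNCRNA.291, by -3.16 ± 0.51 (0.011). The cph2-delta effect was lower for 3 members, where 1.14% of all tested genes were lower and 0.118% higher (1.26% in either direction). These were SPNCRNA.292, by -4.37 ± 0.88 (edgeR adjusted p = 0.034), SPNCRNA.291, by -2.89 ± 0.51 (0.020), and SPNCRNA.1310, by -4.59 ± 0.95 (0.040). Both sets of differences use the same set2-delta and wt2 libraries, and the gap between wt and wt2 at these 3 RNAs, given above, enters each of them. All 5 differences were lost with total counts as the scale (edgeR adjusted p from 0.058 to 0.11). The cph1-delta difference of SPNCRNA.292 was also lost with TMM factors from coding genes (0.0505), and the cph2-delta difference of SPNCRNA.1310 with the replicate number as a block (0.066) and in the fit of the compared strains alone (0.055). All 5 were lost too when certain single libraries were left out. For SPNCRNA.291 these were wt replicate 1, wt2 replicate 2, set2-delta replicate 2 and replicate 2 of cph1-delta or cph2-delta, with edgeR adjusted p up to 0.082 and 0.11 in the 2 comparisons. For SPNCRNA.292 they were any library of wt, wt2 or set2-delta and replicate 2 of cph1-delta or cph2-delta (up to 0.21 and 0.17), and for SPNCRNA.1310 any of the 10 libraries (up to 0.19).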

How the data were processed

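RNA was selected for poly(A) tails and sequenced on an Illumina instrument, per the labels' protocols, so RNAs without tails are under-represented. Per the submitters' processing notes, STAR 2.7.10a, SAMtools 1.16.1, Picard, DESeq2 1.36.0 and edgeR 3.38.4 were used with build ASM294v2. The authors deposited unnormalized counts for each gene, made with featureCounts of Subread 2.0.1 over exons and, per the file headers, with no option for strand, multi-mapping reads or reads over several genes.

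The members, gene lists and tests were chosen with earlier results of these data known. Groups came from the sample labels. Genes were kept with edgeR's filterByExpr, which left 5067 of 7268, scaled by TMM and fitted over all 10 libraries with 1 mean per strain (edgeR 4.0.16, limma 3.58.1, R 4.3.3), leaving 5 residual degrees of freedom. The residual spread is that of all 5 strains. The quasi-likelihood test was run without robust estimation, its p-values were adjusted by Benjamini-Hochberg across every gene tested (threshold 0.05), and ± after a log2 fold change is the standard error from that fit. The procedure was tested on simulated data. Shares of counts were compared by exact permutation tests. Library deviations used log2 of CPM plus 0.25, and lower bounds a floor of 3 counts over a group. The chi-square between replicates, divided by its degrees of freedom, was 37.5 to 115, so none was a copy. Alternatives were RLE scaling, total counts, TMM factors from coding genes, no low-count filter, at least 5 CPM in 2 libraries, DESeq2 1.42.0, robust estimation, a replicate block, fits of the compared strains alone, and leaving out each library.

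Named members were those past the test with both deletion libraries beyond both of the parent, those past it in the other comparisons, the 8 highest by level per length, and the 6 highest with a RefSeq symbol other than the systematic identifier. The count table's gene IDs matched RefSeq (ASM294v3) for 177 of 186 members, 173 with the same coordinates. Sequences and motif counts use RefSeq's own coordinates, and gene positions those of the count table. Windows of the other named members are not reported here.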

Additional observations from a re-analysis of the deposited data

Results flagged for a closer look

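At 3 RNAs near the left end of chromosome II the effects of deletions differed by the test of the difference itself. For SPNCRNA.292 the cph1-delta effect was below that of set2-delta by -4.36 on the log2 scale and the cph2-delta effect by -4.37. For SPNCRNA.291 the values were -3.16 and -2.89. For SPNCRNA.1310 the cph2-delta effect was below that of set2-delta by -4.59. Each deletion was compared with its own parent, and wt2 lay below wt at all 3 RNAs, with log2 differences of -3.47, -1.72 and -1.61 for SPNCRNA.292, SPNCRNA.291 and SPNCRNA.1310. The part of that gap in the 5 differences was not tested. All 5 lost their call when certain single libraries were left out.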

How the results depend on the processing

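No call reversed its direction under any alternative. The alternatives gave 316 values for the named members' calls, of which 201 stayed past the threshold, 115 kept their direction but missed it, and none reversed. DESeq2 kept all 17 such calls, the fit with factors from coding genes 16, RLE scaling 15, the replicate block 14, the fit of the compared strains alone 10, and scaling by total counts 6. The number of called members in cph1-delta, 2, was 1 with at least 5 CPM in 2 libraries, 5 with DESeq2 (2 higher and 3 lower) and 0 with the compared strains alone. In cph2-delta, 4 became 2 with total counts, with the 5 CPM filter and with the compared strains alone, and 7 with DESeq2. In set2-delta, 5 became 3 with RLE scaling and with the 5 CPM filter, 1 with total counts, 4 with no low-count filter and 10 with DESeq2. With the compared strains alone 5 became 7: SPNCRNA.291, SPNCRNA.292 and SPNCRNA.1097 stayed, and SPNCRNA.307 and SPNCRNA.383 dropped out. The members added there were sme2, SPNCRNA.178, SPNCRNA.472 and SPNCRNA.745. Between cph1-delta and cph2-delta, 0 became 1 with DESeq2, and between wt2 and wt, 1 became 3 with no low-count filter and 4 with DESeq2. For the cph1-delta effect minus the set2-delta effect, 2 became 0 with total counts and 3 with DESeq2. It became 1 with factors from coding genes and with the 5 CPM filter. For cph2-delta minus set2-delta, 3 became 0 with total counts, 1 with the 5 CPM filter, 2 with the compared strains alone and 5 with DESeq2. The cause of these changes was not tested, except that the 5 CPM filter tests fewer members.

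With single libraries left out, where a lone library is assumed to vary like the other strains, the number of called members ran from 0 to 2 in cph1-delta, 0 to 13 in cph2-delta, 0 to 4 in set2-delta, 0 to 1 between cph1-delta and cph2-delta, 1 to 1 between the parents, 0 to 2 for the cph1-delta and 0 to 5 for the cph2-delta effect minus that of set2-delta. The member median, an alternative chosen after seeing the data, ran from -0.068 to 0.53 in cph1-delta, -1.18 to -0.039 in cph2-delta and 0.25 to 0.44 in set2-delta. The difference in the members' share of counts, likewise, ran from 0.0114 to 0.0691, -0.0325 to 0.0072 and 0.0274 to 0.0300 percentage points. Scaling by total counts moved the median of all genes in cph1-delta from 0.02 to 0.32, and the members stood 0.24 above it, against 0.27 with TMM.

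With the replicate number as a block the counts were 2 in cph1-delta, 3 in cph2-delta, 4 in set2-delta, 0 between cph1-delta and cph2-delta, 1 between the parents, and 2 and 2 for the differences of effects. Correlations between the deviations of same-numbered libraries ran from -0.41 (cph1-delta and wt) to 0.26 (set2-delta and wt2), with 0.23 for cph2-delta and wt. With 2 libraries a strain, these values cannot decide whether libraries share a batch or a pairing. The labels name no pairing, so the numbers are not taken as pairs. Members had a median of 263.5 counts over all 10 libraries, and the median standard error of a tested member was 0.67 to 0.69, against 0.24 over all tested genes. The effect of depth on the number of calls was not tested.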
